A study of Mus musculus with 16 samples.

Results

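The 7 genes followed here encode Src family kinases and proteins that work with them: the kinases Src, Fgr, Lyn and Fyn, the kinase Csk that restrains them, the ubiquitin ligase Cbl and the kinase Ptk2b (Pyk2). They were chosen by name, with earlier results of these data known. Each is represented by the array feature that carries its symbol and no other. Of the 7, 6 had such a feature, 1 each, among 22180 genes with a feature of 1 symbol, and all 6 lay above the filter on dim genes that left 15526 genes to test. No feature of 1 symbol is named for Lyn in the probe table used here, so Lyn was not analysed here.

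Gene expression had been measured on 16 arrays of 1 colour in macrophages grown from the bone marrow of male C57BL/6 mice aged 5 weeks. Every culture received macrophage colony-stimulating factor (M-CSF), and RANKL, the cytokine that turns these cells into bone-resorbing osteoclasts, was added in all but the 0 h arrays. Cultures received either DW, the control as the labels name it, or 1 mM dimethyl α-ketoglutarate (αKG), a cell-permeable ester of a metabolite of the tricarboxylic acid cycle. The 8 groups held 2 arrays each: 0 h with DW and no RANKL; DW with RANKL at 3 and 6 h (early), 12 and 24 h (intermediate) and 48 and 72 h (late); αKG with RANKL at the same 3 phases; and αKG with RANKL at 0.5 and 1 h (fast). Apart from 0 h there was 1 array per treatment and time, and RANKL could not be told apart from time in culture. The fast arrays had no DW arrays at their own times, so they differed from 0 h in RANKL, αKG and time at once. The labels do not state whether the arrays stand for separate cultures or mice. The p-values therefore reflect no more than the spread among these arrays. In the comparisons with 0 h the spread within a phase includes the 2 different times. In the comparisons of αKG with DW the times were fitted as a block. There the spread is how far the gap between the arms varied from time to time. All comparisons with 0 h share the same 2 control arrays, and the late comparison of αKG with DW shares the DW late arrays with the comparison of DW late with 0 h.

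Src family kinases are held closed by an inhibitory phosphate that Csk places on their tail, and phosphatases open them. In osteoclasts, integrins attached to bone bring Src together with Pyk2 and Cbl, and this complex reorganises the actin of the podosomes and the sealing zone. Mice without Src form osteoclasts that lack a ruffled border and resorb bone poorly.

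The 2 members that rose with RANKL in the late phase, Src and Fgr, are shown by their promoter windows, since they moved up in the same comparison. Each window runs from 250 bases before to 50 after the annotated start (RefSeq, GRCm38.p6, plus strand), Src at chr2:157424043-157424342 and Fgr at chr4:132973845-132974144. Capitals mark matches to the motifs of PU.1 (GAGGAAG) and NF-κB.
Src: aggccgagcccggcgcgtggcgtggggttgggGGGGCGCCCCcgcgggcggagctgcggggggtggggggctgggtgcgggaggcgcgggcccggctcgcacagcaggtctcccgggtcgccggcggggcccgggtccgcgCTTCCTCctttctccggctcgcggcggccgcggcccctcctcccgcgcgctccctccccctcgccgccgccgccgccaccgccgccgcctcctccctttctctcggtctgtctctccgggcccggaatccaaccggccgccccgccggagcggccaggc
Fgr: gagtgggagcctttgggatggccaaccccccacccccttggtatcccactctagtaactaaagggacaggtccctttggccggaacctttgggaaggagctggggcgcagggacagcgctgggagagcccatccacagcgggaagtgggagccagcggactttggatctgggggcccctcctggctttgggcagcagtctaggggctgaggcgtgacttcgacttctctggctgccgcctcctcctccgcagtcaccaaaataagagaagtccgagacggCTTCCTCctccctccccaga
Windows were available for 5 of the 7 genes. The PU.1 letters, searched on both strands as all motifs were, stood once in the Src window, once in the Fgr window and in 13.6% of all 32851 promoter windows of that length. Among the other members with a window, Fyn and Cbl held none, and of the 2 windows of Csk 1 held none and the other 2. They began at base 142 of the Src window and base 281 of the Fgr window, in both as the reverse strand CTTCCTC. The ETS core CCGGAA, which overlapped neither PU.1 match, also stood once in the Src and the Fgr window and in 14.9% of all windows. The Cbl window held it once as well, and the windows of Fyn and Csk held none. The Src window held an NF-κB match (8.46% of all windows), at base 33, and 2 GGGCGG motifs of Sp1 (35.7%), and the Fgr window neither. Sp1 letters also stood 4 times in the Cbl window, once in that of Fyn and once in 1 of the 2 of Csk. Neither the Src nor the Fgr window held the AP-1 letters TGANTCA (7.81%), the NFAT core GGAAA (61.3%), TATAAA (13.6%), the E-box CACGTG (7.15%) or TGACGT (7.51%). A match is a description of these letters and not a measured site.

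The identity of the cells was checked first. The mean of 8 macrophage markers was 10.99 to 11.01 log2 in the 0 h arrays, 10.19 to 10.87 in the DW late arrays and 10.59 to 10.96 in the αKG late arrays. The mean of 10 osteoclast markers ran from 5.13 to 5.196 at 0 h to between 9.45 and 11.12 in DW late, with 8 of the 10 genes past the test, and stood at 7.69 to 9.19 in αKG late. Markers of neutrophils and their precursors were present at 0 h (mean of 10 genes 7.78 to 7.80) and lower in DW late (5.17 to 5.46) and αKG late (5.29 to 5.88), and all 10 passed the test in both late comparisons with 0 h. Megakaryocyte and platelet markers (4 genes) ran from 7.85 to 7.95 at 0 h to 5.80 to 6.07 in DW late and 5.89 to 5.99 in αKG late. T and NK, B, erythroid, mast, dendritic and stromal lists had means from 3.29 to 5.31 in every array. Within the T and NK list, Lat was higher in DW late than at 0 h, by 1.10 log2 (limma, adjusted p = 0.011). With αKG it was lower than in DW in the late phase (-1.06, adjusted p = 0.00844). Marker genes thus move with the late phase beside every late result below, and their part in those results was not tested. In RNA from whole cultures, fewer cells of a type and less RNA per cell cannot be told apart. The DW 72 h array stood furthest from the others (mean correlation 0.928 with the other arrays, against 0.960 to 0.975 for the remaining 15).

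**Figure D1:**
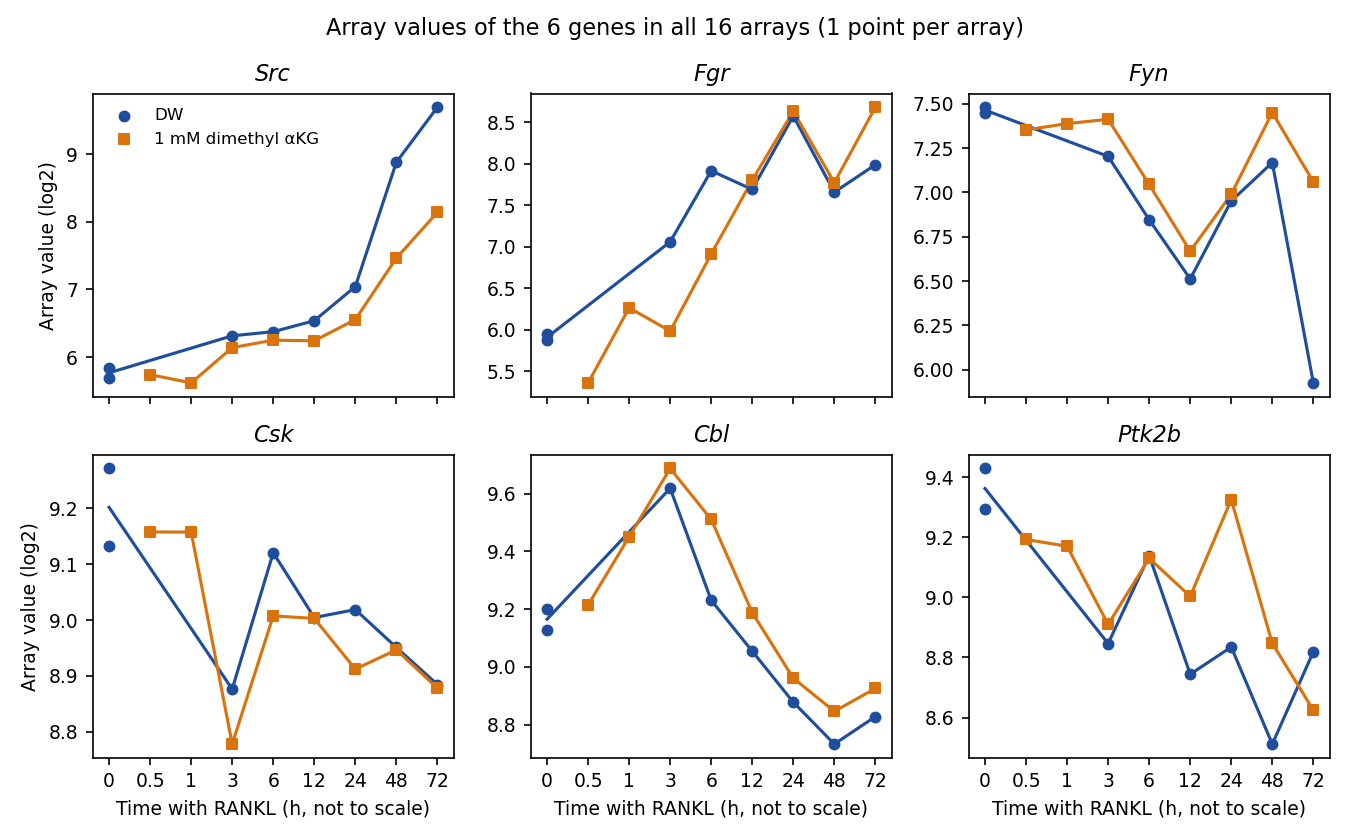
Array value (log2, vertical axis, its range differing between panels) of the 6 genes against time with RANKL (h, evenly spaced and not to scale), 1 point per array, circles for DW and squares for αKG; lines join the arrays of an arm and, at 0 h, start from the mean of 2 arrays. Src climbs to 9.69 in DW and to 8.14 with αKG at 72 h, whereas Csk stays between 8.78 and 9.27.

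Src, the founding member of the family, rose with RANKL in both arms and stood lower with αKG in the late phase. Its values were 5.70 and 5.84 log2 in the 0 h arrays and 5.74 and 5.62 in the αKG arrays at 0.5 and 1 h. In DW with RANKL these were 6.32, 6.38, 6.54, 7.04, 8.88 and 9.69 at 3, 6, 12, 24, 48 and 72 h. With αKG they were 6.14, 6.25, 6.24, 6.56, 7.46 and 8.14 at the same times. From 3 h on every array with RANKL lay above both 0 h arrays, and both αKG late arrays lay below both DW late arrays. In order of their means the groups ran from αKG fast and 0 h, which overlapped, through αKG early to DW early, αKG intermediate and DW intermediate, where each overlapped the next, and then to αKG late and DW late, which overlapped no other group.

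The DW late arrays exceeded 0 h by 3.51 ± 0.28 log2 for Src (an 11.4-fold difference; ± is the standard error throughout; limma, Benjamini-Hochberg adjusted p = 0.000117), which was rank 8 of the 15526 p-values. By array, Src stood at 8.62 times the 0 h mean at 48 h and 15.1 times at 72 h in DW, and at 3.23 and 5.17 times with αKG. With αKG the late difference from 0 h was 2.03 ± 0.28 (adjusted p = 0.00498). The earlier phases did not pass the test: in DW they gave 0.58 ± 0.28 (adjusted p = 0.868) and 1.02 ± 0.28 (0.171), and with αKG 0.43 ± 0.28 (0.832) and 0.63 ± 0.28 (0.511). The late DW value passed the test under all 12 alternatives tried, between 3.11 and 3.92. The late αKG value lost the call without either 0 h array or without the 72 h array (adjusted p 0.0589 to 0.0722).

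Fgr, a kinase of myeloid cells, also rose with RANKL in both arms, but on a different course. It was at 5.87 and 5.95 in the 0 h arrays and at 5.36 and 6.26 with αKG at 0.5 and 1 h. In DW its values were 7.06, 7.92, 7.69, 8.58, 7.66 and 7.99 from 3 to 72 h. With αKG they were 5.98, 6.91, 7.80, 8.63, 7.77 and 8.68. Each DW array with RANKL lay above the 0 h arrays, and in the αKG arm the 3 h array lay only 0.08 above the 0 h mean. The 2 αKG early arrays lay below both DW early arrays, and from 12 h on the groups of the arms overlapped.

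The late differences of Fgr from 0 h passed the test in both arms, at 1.92 ± 0.48 in DW (limma, adjusted p = 0.0358) and 2.32 ± 0.48 with αKG (0.0401). Intermediate differences of similar size, 2.23 ± 0.48 in DW and 2.31 ± 0.48 with αKG, missed it (adjusted p = 0.0664 and 0.0569). Early values were 1.58 ± 0.48 in DW (0.33) and 0.54 ± 0.48 with αKG (0.917). The DW late call was lost without either 0 h array or without the 72 h array (adjusted p 0.175 to 0.178), and the αKG late call without any of its 4 arrays (0.0602 to 0.333). The neutrophil markers fell in the same late comparisons, and their part in the course of Fgr was not tested.

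Fyn, the more widely expressed relative, was highest at 0 h and showed its lowest value in the DW array at 72 h. It read 7.48 and 7.45 at 0 h and 7.35 and 7.39 with αKG at 0.5 and 1 h. In DW its values were 7.204, 6.85, 6.51, 6.95, 7.17 and 5.93 from 3 to 72 h, and with αKG 7.41, 7.05, 6.67, 6.99, 7.45 and 7.06. Both 0 h arrays were above nearly all others, the αKG 48 h array (7.45) lying just above the lower of them. In order of the group means each group overlapped the next, from DW late up to αKG fast, and αKG fast did not overlap 0 h. The DW late difference was -0.92 ± 0.33 and did not pass (limma, adjusted p = 0.139). It rested on 72 h: without the 48 h array it was -1.54, and at 72 h the array itself was the one least like the rest. In the αKG arm the differences from 0 h were -0.24, -0.64 and -0.21 ± 0.33 for the 3 phases, with adjusted p of 0.984, 0.624 and 0.889.

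Ptk2b encodes Pyk2, a kinase of the focal adhesion kinase family that binds Src, and it fell in DW late. It read 9.43 and 9.30 at 0 h and 9.19 and 9.17 with αKG at 0.5 and 1 h. The DW arrays gave 8.85, 9.14, 8.74, 8.83, 8.51 and 8.82 from 3 to 72 h, and the αKG arrays 8.91, 9.13, 9.004, 9.33, 8.85 and 8.62. All DW arrays with RANKL were below both 0 h arrays, whereas the αKG array at 24 h lay between them. Ptk2b fell in DW late by 0.70 ± 0.17 on the log2 scale (limma, adjusted p = 0.0317). That call was lost without either 0 h array, without the 48 h array and when only the 2 groups were fitted, with adjusted p from 0.0884 to 0.206. With αKG the late difference was -0.63 ± 0.17 (adjusted p = 0.12). DW early and intermediate stood at -0.37 ± 0.17 (0.816) and -0.57 ± 0.17 (0.207), and αKG early and intermediate at -0.34 ± 0.17 (0.686) and -0.20 ± 0.17 (0.83).

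Csk, the kinase that closes Src family kinases, covered the narrowest range of the 6 genes, from 8.78 to 9.27 over all arrays. Values were 9.13 and 9.27 at 0 h, 9.16 and 9.16 with αKG at 0.5 and 1 h, and 8.88, 9.12, 9.004, 9.02, 8.95 and 8.88 in DW from 3 to 72 h. With αKG they were 8.78, 9.01, 9.003, 8.91, 8.95 and 8.88. All 12 arrays from 3 h on lay below both 0 h arrays. No difference passed the test (limma), and αKG fast stood at -0.04 ± 0.13. From 3 h on the phase values ran from -0.19 to -0.31 with an error of 0.13, the largest in αKG early (adjusted p = 0.558). In DW late it was -0.28 ± 0.13 (0.239) and in αKG late -0.29 ± 0.13 (0.414).

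Cbl, an adaptor and ubiquitin ligase that binds Src and Pyk2, peaked at 3 h in both arms and was lowest at 48 h. It read 9.201 and 9.13 at 0 h and 9.21 and 9.45 with αKG at 0.5 and 1 h. DW arrays gave 9.62, 9.23, 9.05, 8.88, 8.73 and 8.83, and αKG arrays 9.69, 9.51, 9.19, 8.96, 8.85 and 8.92. Both arms started above the 0 h arrays and ended below them. None of these differences passed the test (limma): 0.26 ± 0.16, -0.20 ± 0.16 and -0.39 ± 0.16 in DW (adjusted p = 1.0, 0.86 and 0.189) and 0.43 ± 0.16, -0.09 ± 0.16 and -0.28 ± 0.16 with αKG (0.433, 0.94 and 0.56).

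**Figure D2:**
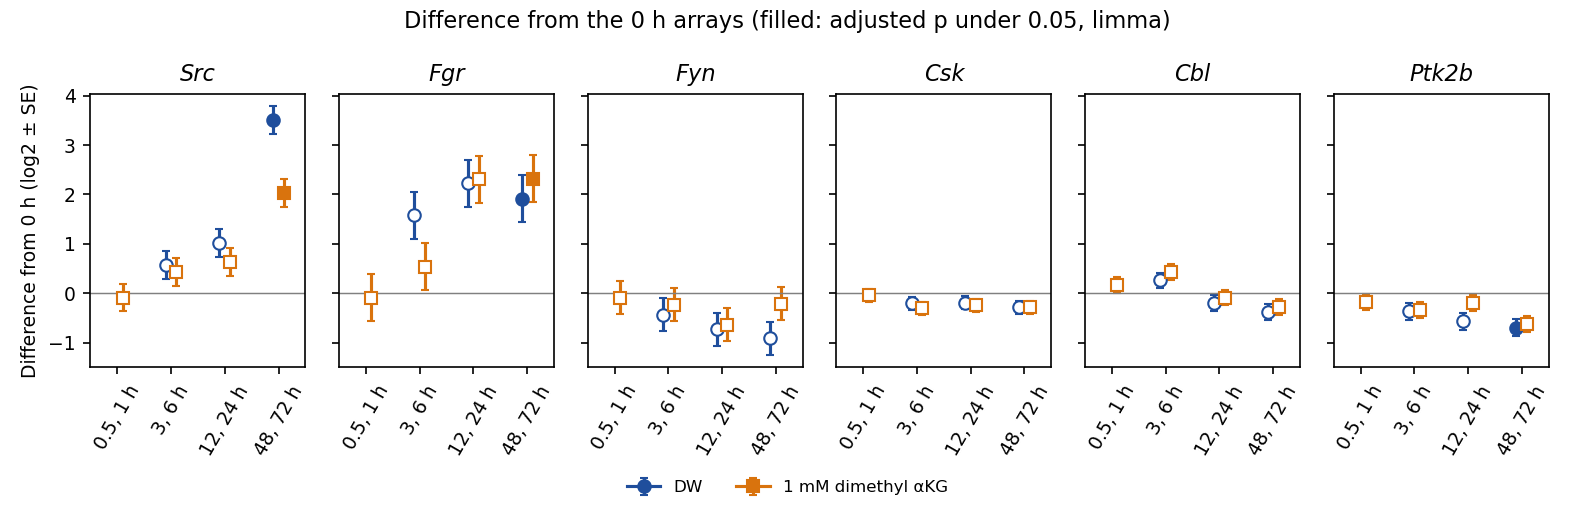
Fitted difference from the 0 h arrays (log2, with standard error) of the 6 genes in each phase, circles for DW and squares for αKG, filled where the adjusted p is under 0.05. Filled points are Src and Fgr late in both arms and Ptk2b late in DW.

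Counted over the 6 genes, 3 passed the test in DW late (2 higher, 1 lower), where 6.64% of all genes tested did, and 2 in αKG late (both higher), where 1.43% did. None passed in the other comparisons with 0 h. Over all genes the shares were 0.341% in DW early, 0.779% in DW intermediate, 0.502% in αKG early and 0.67% in αKG intermediate. At an unadjusted p under 0.05 the members counted 1, 3, 2 and 2 in these 4 comparisons (limma). Over all 15526 genes tested, 952, 1389, 1249 and 1463 had such a p there. For αKG fast 0% of genes passed, with 96 genes called when those 2 groups were fitted alone, 540 of 15526 under an unadjusted p of 0.05 and none of the 6 members, whose differences ran from -0.18 (Ptk2b) to 0.17 (Cbl). The median of the 6 members was -0.33 in DW late and -0.25 in αKG late, against -0.00084 and -0.00187 for all genes tested.

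The effect of αKG was then taken at the 6 times common to the arms, in a fit blocked on time. For Src the αKG array lay below the DW array at 6 of 6 times, with αKG minus DW at -0.18, -0.12, -0.30, -0.49, -1.42 and -1.55 log2 from 3 to 72 h. The gap was thus small up to 12 h and largest at 72 h. Over all 6 times the difference, αKG minus DW, was -0.68 ± 0.20 and did not pass (limma, adjusted p = 0.19). In the late phase Src was lower with αKG, at -1.48 ± 0.11 log2 (2.80-fold; adjusted p = 0.000762, rank 6 of 15526), while early and intermediate values were -0.15 ± 0.11 (0.805) and -0.39 ± 0.11 (0.324). The late effect differed from the early effect by -1.33 ± 0.16 (adjusted p = 0.0176). Fitted with no time block the late value stayed at -1.48 and its adjusted p was 0.148, and the difference between phases was lost without the 3 h or the 6 h arrays (0.217 and 0.268). All 10 osteoclast markers were lower with αKG in the same late comparison, with a median of -2.00, and 2 of 10 neutrophil markers and 1 of 8 macrophage markers were higher.

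Fgr gave the opposite order of phases. αKG minus DW was -1.08 and -1.004 at 3 and 6 h, 0.11 and 0.06 at 12 and 24 h, and 0.11 and 0.69 at 48 and 72 h. It was therefore below 0 at the 2 early times and above 0 at the other 4. The early effect was -1.04 ± 0.14, a 2.06-fold lower value (limma, adjusted p = 0.0366, rank 12 of 15526). Intermediate and late effects were 0.08 ± 0.14 (0.912) and 0.40 ± 0.14 (0.157). Without the 48 h arrays the late value was 0.69, which is the 72 h pair alone and includes the DW array furthest from the others. The late effect exceeded the early effect by 1.44 ± 0.20 (adjusted p = 0.026), which was lost without the 3, 6, 12 or 24 h arrays (0.0679 to 0.277). Over the 6 times it was -0.18 ± 0.21 (0.774). The early call was lost in 7 of 14 alternatives: without the 3, 6, 12 or 24 h arrays (0.152 to 0.902), with the dimmer 50% of genes left out (0.0501), with no intensity trend (0.1) and with no time block (1.0). In the early phase the neutrophil list had means of 7.68 to 7.78 in DW and 7.67 to 7.70 with αKG, and the macrophage list 11.02 to 11.08 and 10.89 to 10.90, with no gene of either list past the test.

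Fyn lay above DW with αKG at 6 of 6 times, by 0.21, 0.20, 0.16, 0.04, 0.28 and 1.13, and the last of these stood apart. The effect was 0.34 ± 0.13 over all times (limma, adjusted p = 0.312) and 0.71 ± 0.18 in the late phase (0.0639). Without the 48 h arrays the late value was 1.13, the 72 h pair alone, so the late value of Fyn rests on the 72 h arrays. Early and intermediate values were 0.20 ± 0.18 (0.845) and 0.10 ± 0.18 (0.919).

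Of the partners, Cbl and Csk moved little between the arms, Ptk2b moved more at some times, and none passed the test there. Cbl was above DW at 6 of 6 times, by 0.07, 0.28, 0.13, 0.08, 0.11 and 0.10, a small offset that was largest at 6 h. Over all times it was 0.13 ± 0.05 (limma, adjusted p = 0.33). Csk was below DW at 6 of 6 times by at most 0.11, with the differences at 12, 48 and 72 h under 0.01 in size, and gave -0.06 ± 0.05 over all times (0.707) and -0.01 ± 0.09 late (0.984). For Ptk2b the differences were 0.06, -0.01, 0.26, 0.49, 0.34 and -0.19, so that the arms changed places between times. Its intermediate effect was 0.38 ± 0.13 (0.415) and its late effect 0.07 ± 0.13 (0.831).

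**Figure D3:**
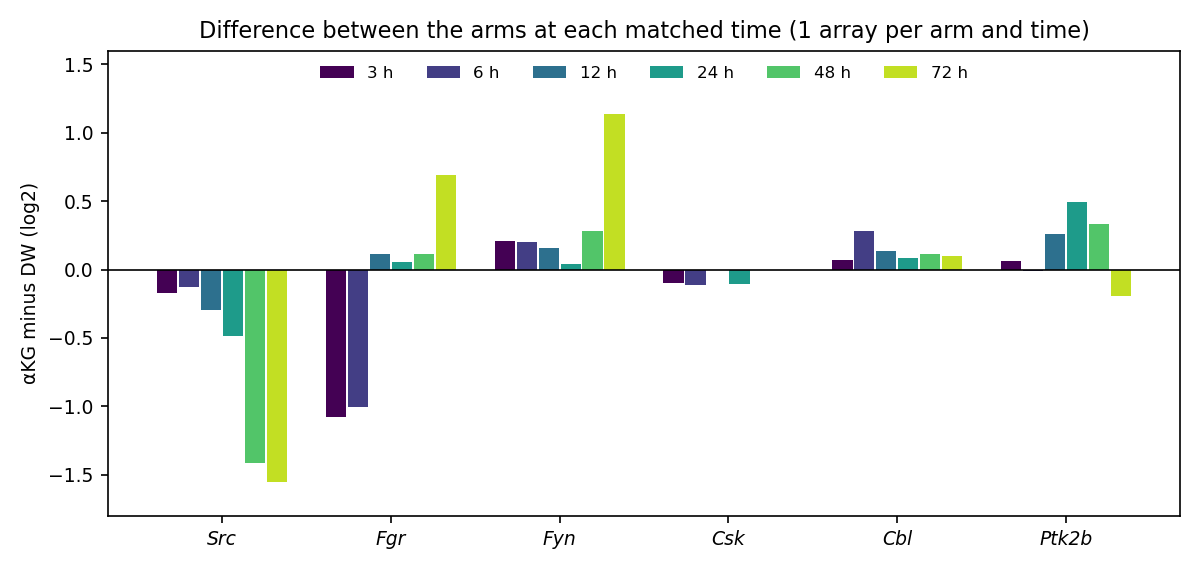
Difference between the αKG and the DW array (log2, vertical axis from 0) at each of 6 matched times for the 6 genes, 1 bar per time with no error bar because each arm has 1 array per time. Src is lowest at 48 and 72 h (-1.42 and -1.55), Fgr is lowest at 3 and 6 h, and Fyn is highest at 72 h (1.13).

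Of the 6 members 1 passed in the late phase (Src, lower), where 4.27% of all genes did, and 1 in the early phase (Fgr, lower), where 0.161% did. None passed in the intermediate phase (0.0966% of all genes) or over the 6 times together (0.399%). There 2 and 3 members had an unadjusted p under 0.05 (limma), as did 1452 and 2061 of all 15526 genes. The difference between late and early effects passed for 2 members, Src and Fgr in opposite directions, and for 0.605% of all genes. Member medians were -0.04, 0.09 and 0.09 for the 3 phases, against -0.01, 0.00330 and 0.01 for all genes.

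Among the closest relatives, Blk was measured at a mean of 4.56 log2 (4.16 to 4.74 over the arrays) and passed in no comparison. Yes1 and Frk fell under the filter on dim genes, and Lck was not analysed here.

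The regulators of Src family kinases, a list of 16 genes that all were tested, went both ways in DW late, with 2 higher and 3 lower and a list median of 0.02, beside 6.64% called and a median of -0.00084 over all genes. Matk, a relative of Csk that also acts on the inhibitory tail, was at 5.38 and 5.53 at 0 h and 6.25 and 6.70 in DW late. Both late arrays lay above both 0 h arrays, a rise of 1.02 ± 0.17 (limma, adjusted p = 0.00532). Pag1, the membrane anchor of Csk, went from 6.45 and 6.57 to 5.69 and 5.65 and fell by 0.84 ± 0.15 (0.00681), again without overlap. Ptpra, a receptor phosphatase that removes the inhibitory phosphate, fell by 0.55 ± 0.13 (0.0254), and Cd2ap, an adaptor that binds Cbl, fell by 0.59 ± 0.14 (0.0277). Ptpn12, the phosphatase PTP-PEST, was the other gene that rose (0.78 ± 0.20, adjusted p = 0.0457). With αKG in the late phase Pag1 was the only one of the 16 called against 0 h (-0.69 ± 0.15, adjusted p = 0.0454), and in the comparisons of αKG with DW none of the 16 passed. Leaving out 1 array ended each of these calls in DW late: Matk without the first 0 h array (0.0615), Pag1 without the other (0.0753), and Ptpra, Cd2ap and Ptpn12 without either of them or without 72 h (0.138 to 0.277).

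Of 29 tested substrates and adaptors that Src and Pyk2 act on in podosomes and the sealing zone, 4 rose and 5 fell in DW late, where 6.64% of all genes were called, with a list median of -0.18. Dock5, an activator of Rac, was at 7.48 and 7.55 at 0 h and at 10.01 and 9.92 in DW late. It rose by 2.45 ± 0.32 there (limma, adjusted p = 0.00129) and by 1.73 ± 0.32 in αKG late (0.0219), where its arrays read 9.25 and 9.23. Cttn, the actin-binding Src substrate cortactin, was at 5.46 and 5.61 at 0 h, 6.59 and 6.87 in DW late and 5.88 and 6.20 in αKG late. Its DW late value was higher by 1.20 ± 0.16 (0.00137), and the 3 groups did not overlap. Vav3, an exchange factor for Rac, fell from 8.64 and 8.56 at 0 h to 7.54 and 7.26 in DW late (-1.20 ± 0.18, adjusted p = 0.00336), and its relative Vav1 fell by 0.66 ± 0.11 (0.0063). Vav3 passed in DW intermediate too (-1.34 ± 0.18, adjusted p = 0.00894), as it did in αKG intermediate and late (-1.08 and -1.07). The other genes called in DW late were Pstpip1 and Pxn (paxillin), which were higher, and Fyb, Cass4 and Rac1, which were lower. With any 1 array left out Dock5, Cttn and Vav3 still passed in DW late, and the other 6 genes did not without either 0 h array (Vav1 0.0615 and 0.0655). Cass4 was the only gene of these lists called in αKG early (-1.06 ± 0.20, adjusted p = 0.0452), and that call was lost in 8 of 12 alternatives. In DW late Cttn and Vav3 each lost the call in 1 of 12 alternatives, 1 that left out no single array (limma, adjusted p = 0.0696 and 0.0807).

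With αKG in the late phase 5 of these 29 genes were lower than in DW and 2 were higher (list median 0.04), beside 4.27% called and a median of 0.01 over all genes. Pstpip1, an adaptor of the actin regulator WASP, was at 9.33 and 9.88 in DW and 8.65 and 8.98 with αKG, a difference of -0.79 ± 0.14 (limma, adjusted p = 0.0186). Dock5 was lower by -0.73 ± 0.15 (0.0286) and Cttn by -0.69 ± 0.13 (0.0254). Fyb, an adaptor that Fyn phosphorylates, was at 8.38 and 8.65 in DW and 9.06 and 9.14 with αKG and was higher by 0.58 ± 0.09 (0.011). In each of these 4 genes the arms did not overlap in the late phase. Fyb still passed without the arrays of any 1 time, whereas Pstpip1, Dock5 and Cttn each lost the call without at least 3 of the 6 times (adjusted p up to 0.102, 0.0827 and 0.103). Vcl (vinculin) and Pxn were the other genes lower with αKG, and Lpxn (leupaxin) the other gene higher, and each lost its call in at least 7 of 14 alternatives. Fyb lost its call in 1 of 14, with all times kept (limma, adjusted p = 0.259).

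Among 21 receptors and kinases that signal with Src family kinases, 2 rose and 3 fell in DW late, where 6.64% of all genes were called. Oscar, an immunoglobulin-like receptor that pairs with the Fc receptor γ chain, was at 4.06 and 3.78 at 0 h and 7.71 and 10.88 in DW late. The late arrays were far above 0 h and also far from each other, and the rise was 5.37 ± 0.93 (limma, adjusted p = 0.00644). Pirb, an inhibitory receptor of a gene family whose members may share probe sequence, rose by 1.15 ± 0.28 in DW late (0.0322) and was also called in αKG intermediate and late (1.61 and 1.43). Trem2, a receptor that pairs with DAP12, fell by 0.78 ± 0.14 (0.00706), Fcer1g, the γ chain itself, by 0.50 ± 0.11 (0.021) and the integrin Itgam by 0.52 ± 0.13 (0.0378). The list median was 0.02. Oscar lost its DW late call without the second 0 h array (0.0655), and the other 4 genes lost theirs without either 0 h array.

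In the late comparison of αKG with DW 3 of the 21 were higher and 3 lower, with 4.27% of all genes called. Oscar read 5.01 and 8.001 with αKG at 48 and 72 h against 7.71 and 10.88 in DW, which gave -2.79 ± 0.14 (limma, adjusted p = 0.000106) with the arms overlapping across times but apart at each. Itgb3, the integrin chain through which osteoclasts attach to bone and activate Src, was at 6.33 and 6.31 at 0 h, 6.84 and 9.90 in DW late and 5.16 and 7.08 with αKG. At each late time the αKG array was the lower, and the difference was -2.25 ± 0.22 (0.00235). Trem2 was higher by 0.67 ± 0.08 (0.004) and Sirpb1a by 1.02 ± 0.18 (0.0165), the latter again from a family of close relatives. Itgam was higher by 0.39 ± 0.07 (0.023) and Traf6, the adaptor of the RANKL receptor, lower by -0.68 ± 0.16 (0.0439), and each lost its call without the arrays of at least 4 times. Oscar, Itgb3, Trem2 and Sirpb1a passed whichever time was left out. Under 1 other alternative, with all times kept, each of them lost its call (limma, adjusted p 0.209 to 0.464). In the early and intermediate comparisons of αKG with DW, and over the 6 times, no gene of the 4 lists passed, and none passed in DW early or αKG fast. The calls of Pag1, Dock5, Vav3, Cass4 and Pirb against 0 h in αKG groups, and of Vav3 in DW intermediate, were each lost without either 0 h array (with 1 array left out, adjusted p 0.0642 to 0.395). Itgb3 and Oscar are in the osteoclast marker list as well, and Itgam in the macrophage list.

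**Figure D4:**
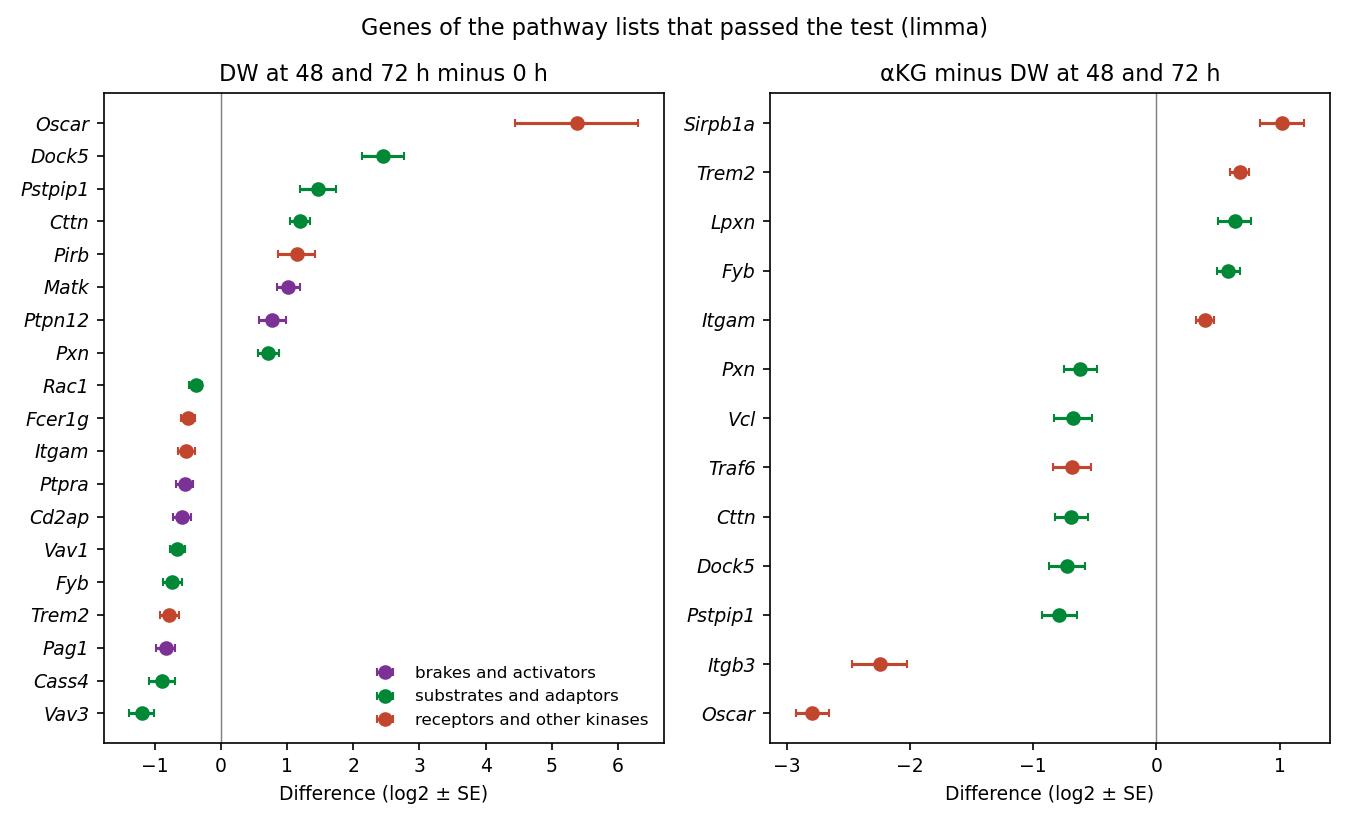
Fitted difference (log2, with standard error) of every gene of the 3 pathway lists that passed the test, in DW late against 0 h (left) and in αKG against DW late (right), coloured by list. Oscar has the highest value on the left (5.37) and the lowest on the right (-2.79).

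Over all 16 arrays the genes whose course was most like that of Src were Ocstamp (Pearson r = 0.978), Mettl15 (0.977), Dnmt3a (0.970), Akap6 (0.970) and Dcstamp (0.969). In DW late Dcstamp was 4.94 ± 0.47 and Dnmt3a 1.45 ± 0.16 above 0 h, and in the late comparison of αKG with DW they stood at -2.14 ± 0.14 (limma, adjusted p = 0.000474) and -0.38 ± 0.10 (0.0714). For Fgr the most like genes were Sestd1 (0.938), Sema4d (0.933) and Cstb (0.929). Fyn was followed by Adk (0.965), Plp2 (0.929) and Cip2a (0.927), and Cbl by Nfe2l2 (0.970), Itsn2 (0.952) and Stk40 (0.944). Ptk2b reached 0.878 with Rbm47, 0.849 with Il17ra and 0.844 with S1pr4, and Csk 0.846 with B3gnt7, 0.839 with Snx30 and 0.807 with Rhoh. These arrays share 2 arms and a common time course, so the coefficients describe the course and were not tested.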

How the data were processed

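Total RNA of 16 samples was turned into sense cDNA and tagged with biotin for whole-transcript arrays, per the labels' protocols. The values are log2 intensities as the authors deposited them, the base taken from their range (0.613 to 13.2). Array medians of 4.84 to 4.93 show values on a common scale. How they were summarised, background-corrected, normalized and annotated, and on which build, is not given in the sources used here; detection per gene was not analysed here. Of 33793 features 23521 had 1 symbol, 1814 several and 8458 are unnamed here. For each gene the feature with the highest mean was kept, and the lowest 30% (up to 4.34) were left out. Models used limma 3.58.1 in R 4.3.3 (lmFit, eBayes with trend, Benjamini-Hochberg over 15526 genes, threshold 0.05). Phases against 0 h were taken in 1 fit of 8 groups (8 residual degrees of freedom). For αKG against DW the fit used 12 arrays with time as a block, as 1 effect (5) or 1 per phase (3). Mean estimates were checked on simulated data without a time course, so that check does not bear on the p-values given here. The pairing by time comes from the labels: deviations at the same time correlated at 0.50 to 0.75, each array best with its own time. The 2 0 h arrays correlated at 0.993. The number of arrays limits the precision.

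The members and all lists were chosen with earlier results of these data known. Named were all members, the closest relatives, up to 4 genes per list and comparison with the smallest p among those past the threshold, and the genes most correlated with each member (5 for Src, 3 for others). Ptpn12 and the further genes that complete a count of calls were named after their values were seen. Alternatives were other filters, normalizations, fits, the block and leaving out each array or pair in turn.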

Additional observations from a re-analysis of the deposited data

Results flagged for a closer look

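The effect of αKG differed between the late (48 and 72 h) and the early (3 and 6 h) phase for 5 of the genes named above, by a test of the difference itself (limma, adjusted p under 0.05). Src had a late effect lower than its early effect by -1.33 log2, and at each of the 6 times its αKG array was the lower. Fgr went the other way, with a late effect higher than the early effect by 1.44. Among the receptors, the difference was -3.02 for Oscar, -2.04 for Itgb3 and 0.73 for Trem2. Over all genes 0.605% passed this test. Without the 3 h or the 6 h arrays Src did not pass it (adjusted p = 0.217 and 0.268), and Fgr, Itgb3 and Trem2 did not pass without the 3, 6, 12 or 24 h arrays (0.0679 to 0.298). Oscar passed whichever time was left out. With no time block none of the 5 passed (Src 0.842), nor did any other gene.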

How the results depend on the processing

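Each member's difference was recomputed under 12 alternatives against 0 h and 14 between the arms. Of 116 alternatives to values that had passed, 85 passed again and 31 kept the direction without passing. Of 808 alternatives to values that had not passed, 7 passed and 8 changed sign. Fitting only the 2 groups compared gave 2 called members in DW early (Src and Fgr) and 1 in αKG early (Cbl), against 0 in each. That fit called 775 genes in DW early, against 53, and 794 in αKG early, against 78. With no replicate block, 0 members were called in the early and late comparisons of αKG with DW and in the difference between phases. With the lowest 50% of genes left out the early count was 0, and with no trend it was 0, and 1 for the difference between phases. Leaving out 1 array gave 1 to 3 members in DW late and 0 to 1 in αKG late. Leaving out a pair of arrays of 1 time gave 0 to 1 early, 1 to 3 late and 0 to 3 for the difference between phases. The highest counts came without 48 h, where Fgr and Fyn joined Src and the late phase was the 72 h pair alone. Counts over all genes moved as well: with 1 array or pair left out, 251 to 2179 genes were called in DW late, 29 to 116 in αKG late, 0 to 149 early, 275 to 1882 late and 1 to 1504 for the difference between phases, and with no replicate block 0, 7 and 0 in the last 3. Fitting 2 groups alone called 115 genes in DW late, 174 in αKG late and 0 in both intermediate phases. The causes were not tested. The number of arrays, 2 a group, limits the precision of every value.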
